A study of Mus musculus with 12 samples.

Results

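The response of control livers to interleukin-6 (IL-6) was described from 4 of the 12 arrays of the series, chosen by their labels: 2 arrays of liver from IL-6-injected mice and 2 of liver from mice injected with phosphate-buffered saline (PBS). All 4 came from mice with the genotype albumin-cre(-) Socs3(w/fl), that is, without the albumin-Cre transgene that would delete their 1 floxed Socs3 allele, and the mice were killed 4 h after an intraperitoneal injection. The livers with deleted Socs3, used below for comparison, came from albumin-cre(+) Socs3(-/fl) mice given the same injections, 2 arrays for each. Their Cre is expressed from the albumin promoter, which is active in hepatocytes, so the other cells of these livers kept the floxed allele beside the deleted one. Strain, sex, age and cytokine dose are not given in the sources used here, nor whether the 2 arrays of a group were 2 mice. The p-values therefore measure only the spread between arrays, which may be technical. The remaining 4 arrays, from Ifng-null mice, entered the common estimate of that spread. They also counted in the intensity floor, the filter and the choice of a gene's probe set given below.

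IL-6 is the main inducer of the acute phase response, in which hepatocytes change the set of plasma proteins they secrete. It binds its receptor and gp130 (Il6st), which activate JAK kinases and the transcription factor STAT3. Socs3 is induced by STAT3, binds gp130 and ends the signal. Interferons, which induce antiviral and antimicrobial genes, signal through JAK kinases as well, and many of the genes they induce carry interferon-stimulated response elements.

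The table gave linear signal intensities, 1 for each probe set on each array. Values under 33.01, the 25th percentile of all values, were raised to that floor before log2 was taken, and 9641 of 12422 probe sets lay above it on at least 2 of the 12 arrays and were tested. Median intensity was between 84.23 and 85.67 on the 4 arrays. Of the 16 hepatocyte markers listed 12 were on the array, and their summed intensity was 56060 and 57680 on the IL-6 arrays against 61370 and 57250 on the PBS arrays. Albumin (Alb) read 12490, 13120, 13310 and 12590 in the same order, so the tissue label was borne out by the markers. In whole liver RNA, fewer cells of a type and less RNA per cell cannot be told apart.

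After IL-6 the highest differences lay in the acute phase genes and in interferon-inducible genes. The interferon lists lay further from PBS on IL-6 array 1, with a median difference of 0.62 log2 units against 0.24 on IL-6 array 2. The medians of the acute phase lists were 0.18 and 0.17, over 48 genes of which most moved little. Of the 20 whose IL-6 arrays both lay above both PBS arrays, 16 were further from PBS on IL-6 array 1. None of the 9641 probe sets passed the test of IL-6 against PBS (limma, adjusted p under 0.05, 0% called). The smallest adjusted p was 0.17, and 248 probe sets (2.57%) had an unadjusted p under 0.05 where 482 would be expected by chance. Of these 248, 176 (1.83% of all) were higher after IL-6 and 72 (0.747%) lower. Both IL-6 arrays lay above both PBS arrays for 1214 probe sets (12.6%) and below them for 1378 (14.3%). With a mean difference of at least 2-fold as well, 34 were higher (0.353%) and 7 lower (0.0726%). The 34 included 29 with a single gene symbol, for 27 genes, and the 7 were all named. With 2 arrays in each group the exact permutation test has 0.333 as its smallest p, so the single-gene results below are values beside the limma fit, not calls.

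**Figure D1:**
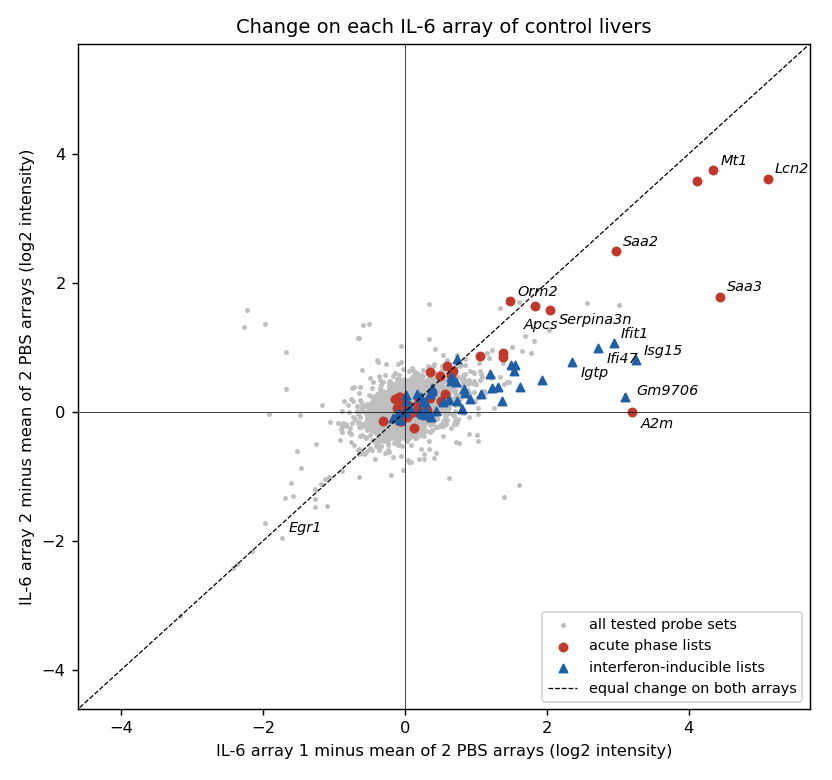
Change in log2 intensity from the mean of the 2 PBS arrays on IL-6 array 1 (x axis) and IL-6 array 2 (y axis), for 9641 tested probe sets (grey), the 5 acute phase lists (red circles) and the 2 interferon lists (blue triangles); the dashed line marks equal change. Mt1, Saa2, Apcs and Orm2 lie near the line, whereas Isg15, Ifit1, Ifi47, Igtp, Gm9706 and the acute phase genes A2m, Saa3 and Lcn2 lie well to its right. Both axes share the PBS arrays, so the spread along the line is not evidence that the arrays agree.

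The 2 IL-6 arrays differed in size of response. On IL-6 array 1, 42 probe sets lay at least 2-fold above both PBS arrays (0.436%), and on IL-6 array 2 only 14 did (0.145%). Below both PBS arrays by the same margin there were 6 and 3. On both IL-6 arrays at once there were 12 above and 3 below. Of the 34 higher probe sets 31 were further from the PBS mean on IL-6 array 1, with a median difference of 1.79 log2 units against 0.999 on IL-6 array 2. For the 7 lower ones the medians were 1.26 and 1.46. The PBS arrays also differed from each other: 36 probe sets were at least 2-fold higher on PBS array 1 and 40 on PBS array 2, as against 25 and 22 between the IL-6 arrays. The replicate correlation over tested probe sets was 0.978 for PBS and 0.987 for IL-6. Across probe sets, which are not independent replicates, the difference of IL-6 array 1 from PBS array 1 correlated with that of IL-6 array 2 from PBS array 2 with r = 0.114, and with the PBS arrays exchanged r was -0.02.

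The 12 probe sets at least 2-fold above both PBS arrays on both IL-6 arrays were those of Lcn2, Mt1, Mt2, Saa3, Saa2, Serpina3n, Apcs, Orm2 and AI506816 and 3 without a single symbol. Of these named genes AI506816 and Lcn2 each overlapped on a second, dimmer probe set. That of AI506816 read 41.86 and 45.37 against 42.64 and 43.67 (0.01 ± 0.20), and that of Lcn2 is given below. All but AI506816 belong to the acute phase lists. The 5 lists, of serum amyloids and pentraxins, fibrinogen, protease inhibitors, iron and haem proteins and metallothioneins, held 48 tested genes. Both IL-6 arrays lay above both PBS arrays for 20 of the 48 (41.7%) and below for 3 (6.25%), as against 12.6% and 14.3% of all probe sets. Their median difference was 0.10 log2 units, as against -0.01 over all, so most list members moved little and a minority moved far.

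Promoters of 5 of these 20 genes are shown because STAT3 and IL-6-responsive acute phase promoters have known sequence motifs: Apcs, Fgb, Hamp and Itih4 were picked as the 4 whose windows held the STAT motif, and Lcn2 as the gene with the highest difference. They are the 250 bases before the annotated start, from RefSeq (GRCm38.p6), 5′ to 3′ on the strand of the gene. Capitals mark TTCNNNGAA, the form of a STAT dimer site, and CTGGGAA, the type II IL-6 response motif, on either strand (TTCCCAG is CTGGGAA on the other strand).
Apcs: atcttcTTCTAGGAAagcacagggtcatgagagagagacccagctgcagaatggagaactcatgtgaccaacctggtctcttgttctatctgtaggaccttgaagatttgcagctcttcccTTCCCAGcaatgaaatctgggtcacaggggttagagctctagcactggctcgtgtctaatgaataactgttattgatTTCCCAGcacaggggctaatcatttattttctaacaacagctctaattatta
Fgb: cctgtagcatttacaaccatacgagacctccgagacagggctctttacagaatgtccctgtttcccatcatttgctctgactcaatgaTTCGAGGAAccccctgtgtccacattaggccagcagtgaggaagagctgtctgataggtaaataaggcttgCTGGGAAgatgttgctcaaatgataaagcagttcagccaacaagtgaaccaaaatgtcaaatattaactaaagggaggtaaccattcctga
Hamp: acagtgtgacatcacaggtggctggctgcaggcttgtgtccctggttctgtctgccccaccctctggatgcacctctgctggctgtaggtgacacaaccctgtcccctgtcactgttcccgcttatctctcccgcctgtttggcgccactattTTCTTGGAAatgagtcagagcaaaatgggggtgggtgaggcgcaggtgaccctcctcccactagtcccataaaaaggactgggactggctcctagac
Itih4: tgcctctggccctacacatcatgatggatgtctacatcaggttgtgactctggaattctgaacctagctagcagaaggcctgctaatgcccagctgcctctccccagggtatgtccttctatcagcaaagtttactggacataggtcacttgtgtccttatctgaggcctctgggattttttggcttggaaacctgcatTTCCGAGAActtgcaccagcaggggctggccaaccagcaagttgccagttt
Lcn2: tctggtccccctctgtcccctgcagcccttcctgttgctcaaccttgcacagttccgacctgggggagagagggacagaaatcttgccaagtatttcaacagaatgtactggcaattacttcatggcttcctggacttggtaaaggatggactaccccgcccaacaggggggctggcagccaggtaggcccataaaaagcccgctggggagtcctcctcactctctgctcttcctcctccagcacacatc

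The Apcs window (chr1:172895055-172895304, minus strand) held TTCTAGGAA starting 244 bases before the gene's start and TTCCCAG starting at 129 and 52 bases before it. The Fgb window (chr3:83049864-83050113, minus strand) held TTCGAGGAA from base -162 and CTGGGAA from base -91. The Hamp window (chr7:30944030-30944279, minus strand) held TTCTTGGAA from base -97, and the Itih4 window (chr14:30886226-30886475, plus strand) TTCCGAGAA from base -51. No letters of either motif were found in the Lcn2 window (chr2:32387740-32387989, minus strand). Of the 20 genes 16 had a window, all but Hp, Orm1, Serpina10 and Serping1. TTCNNNGAA lay in 4 of these 16 (25%) and in 7.02% of all 32851 windows, and CTGGGAA lay in 3 (18.8%) and in 9.1% of all. A listed gene counted if any of its windows matched. The share of all is per window, over 27025 genes of which some have several, so the shares are not quite like measures. List members that were not higher after IL-6 were not counted apart, so the shares do not set the higher genes apart within the lists. A match is a description of letters and not a bound site.

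Lcn2, which encodes lipocalin-2, a protein that keeps iron from bacteria by binding their siderophores, read 1454 and 513.6 after IL-6 and 53.53 and 31.61 after PBS. The groups did not overlap, and PBS array 2 was under the floor. The difference was 4.36 ± 0.67 log2 units (SE, n = 2 against 2), or 20.6-fold, with an adjusted p of 0.418 by limma, and it was the highest among all tested probe sets. A second, dimmer Lcn2 probe set overlapped between the groups, at 85.05 and 109.5 against 71.43 and 110.8 (0.12 ± 0.21). Hamp, which encodes the iron hormone hepcidin, read 4683 and 3377 after IL-6 and 2169 and 1482 after PBS, a difference of 1.15 ± 0.27. Haemopexin (Hpx), the haem carrier of plasma, read 8700 and 8275 against 6716 and 6597. Haptoglobin (Hp), which binds free haemoglobin, read 12580 and 11480 against 10580 and 9189. All 4 were higher on both IL-6 arrays than on either PBS array, and the other 7 tested members of the iron and haem list differed by at most 0.11 log2 units.

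The metallothioneins Mt1 and Mt2, small proteins that bind zinc and copper, had the next highest differences. Mt1 read 9294 and 6158 after IL-6 against 1197 and 175.8 after PBS, 4.04 ± 1.02 log2 units. Mt2 read 8547 and 5890 against 966.7 and 252.4, 3.84 ± 1.05. The PBS arrays themselves lay far apart, and both genes read several times higher on PBS array 1 than on PBS array 2. The adjusted p was 0.859 for Mt1 and 1.0 for Mt2 (limma). The brain and skin forms Mt3 and Mt4 differed by 0.17 and 0.04.

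Among serum amyloid A, pentraxin and orosomucoid genes, 6 of 8 tested read higher on both IL-6 arrays than on either PBS array and none lower, with a list median of 1.13. Saa3, an amyloid made in liver and macrophages, read 2786 and 442.2 after IL-6 against 117.5 and 140.4 after PBS (3.11 ± 0.73). IL-6 array 1 was well over the other. Saa2, a major acute phase apolipoprotein, read 10440 and 7467 against 3254 and 544.8 on the probe set that stood for it (2.73 ± 0.94) and 844.0 and 457.4 against 242.2 and 83.59 on another (2.13 ± 0.58). Here too PBS array 1 was far above PBS array 2. Saa1 and Saa2 are nearly identical, and these probe sets may not separate them. The Saa pseudogene Saa-ps read 139.0 and 97.33 against 52.93 and 34.79.

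Apcs encodes serum amyloid P, the main acute phase pentraxin of mice. It read 1548 and 1364 after IL-6 against 498.0 and 382.7 after PBS, 1.74 ± 0.44 log2 units, with like values within each group. Orm2, an orosomucoid that binds drugs and lipids in plasma, read 1335 and 1566 against 593.1 and 384.9 (1.60 ± 0.48), and was the member of this list above 1 log2 unit that was higher on IL-6 array 2. Orm1 read 3761 and 3618 against 2842 and 1933, and C-reactive protein (Crp) 905.4 and 743.6 against 641.0 and 590.2. The members outside the 6 were Saa4, which overlapped between groups, and Orm3, whose difference was -0.05.

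Of 14 tested protease inhibitors 5 were higher on both IL-6 arrays than on either PBS array and 1 was lower. Serpina3n, a mouse homologue of antichymotrypsin, read 8022 and 5793 after IL-6 against 2684 and 1401 after PBS, 1.81 ± 0.36, with an adjusted p of 0.602 by limma. Serpina10, the protein Z-dependent inhibitor of factor Xa, read 2883 and 2000 against 1490 and 816.5 (1.12 ± 0.34). The inter-alpha-trypsin inhibitor chains Itih4 and Itih3 read 3244 and 2854 against 1877 and 1298, and 4229 and 4007 against 2720 and 2673. The other chains Itih1 and Itih2 differed by 0.04 and 0.08, and the abundant alpha-1-antitrypsin genes Serpina1b, Serpina1c and Serpina1e by between -0.06 and 0.00. A2m, encoding alpha-2-macroglobulin, read 302.3 on IL-6 array 1 but 31.58 on IL-6 array 2, 23.57 on PBS array 1 and 26.82 on PBS array 2. The last 3 lie under the floor, so A2m was at least 9.16-fold higher on IL-6 array 1 than the PBS arrays and not above the floor on IL-6 array 2.

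Fibrinogen has 3 chains. The beta chain gene Fgb read 3233 and 3528 after IL-6 against 2458 and 1873 after PBS (0.65 ± 0.13, adjusted p 0.602 by limma), and the gamma chain gene Fgg 4583 and 4772 against 3894 and 2697 (0.53 ± 0.15). Fga, for the alpha chain, overlapped, at 2572 and 2381 against 2466 and 2093. Lrg1, a leucine-rich plasma glycoprotein outside the lists, read 5821 and 4943 against 3270 and 2088 (1.04 ± 0.30). Ldha, the lactate dehydrogenase subunit A gene, read 4805 and 4411 against 2907 and 2438. These were moderate, even differences on both IL-6 arrays.

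**Figure D2:**
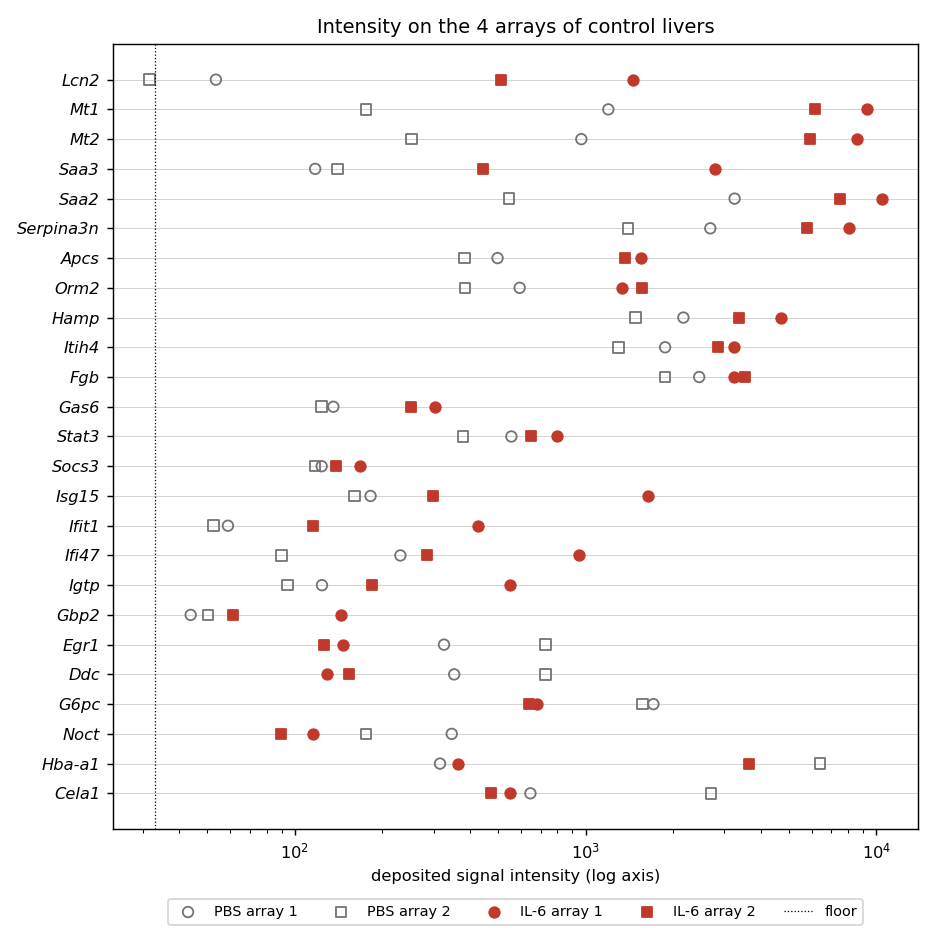
Deposited signal intensity (log axis) of 25 genes on the 4 arrays of control livers; filled red symbols are IL-6, open grey symbols PBS, circles array 1, squares array 2, and the dotted line is the floor of 33.01. Acute phase genes from Lcn2 to Fgb have both red symbols to the right of both grey ones, the interferon genes from Isg15 to Gbp2 have IL-6 array 1 apart from the other 3 arrays, Egr1 to Noct have both red symbols on the left, and Hba-a1 and Cela1 follow single arrays and not the injection.

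Genes of plasma proteins that decrease in an acute phase had small differences. Of 15 tested, 2 lay lower and 2 higher without overlap, with a median difference of 0.00. Transthyretin (Ttr) read 1505 and 1872 after IL-6 against 2000 and 1919 after PBS. Igfals, the acid-labile subunit that carries IGF1, read 416.7 and 711.9 against 798.1 and 810.2, with IL-6 array 1 much the lower. Corticosteroid-binding globulin (Serpina6) was among those higher, at 2166 and 2150 against 1623 and 1061. Complement and coagulation genes had medians of 0.04 and 0.05.

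In genes of the signalling chain itself the differences were small. Socs3, the floxed gene, read 167.2 and 139.1 after IL-6 against 123.7 and 117.5 after PBS, 0.34 ± 0.18 log2 units, with an adjusted p of 1.0 by limma. A further Socs3 probe set read 113.0 and 97.30 against 78.75 and 88.23, 0.33 ± 0.16. On both, the groups did not overlap and the difference was close to 1.26-fold. In the Socs3-deleted livers the first probe set read 105.8 and 84.26 after IL-6 and 76.83 and 74.37 after PBS, below all 4 control arrays. The Socs3 promoter window (chr11:117969367-117969616, minus strand) held TTCTTAGAA from base -154.
Socs3: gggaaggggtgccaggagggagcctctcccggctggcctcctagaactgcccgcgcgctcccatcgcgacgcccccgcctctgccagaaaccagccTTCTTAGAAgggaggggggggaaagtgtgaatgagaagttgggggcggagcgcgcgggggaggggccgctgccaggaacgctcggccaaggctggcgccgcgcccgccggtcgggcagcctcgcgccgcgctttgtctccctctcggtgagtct

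Stat3, the transcription factor of the pathway, read 799.9 and 647.2 after IL-6 against 555.6 and 379.4 after PBS (0.65 ± 0.26). Il6st, encoding gp130, read 339.3 and 319.7 against 291.6 and 171.2, and overlapped on a dimmer probe set, at 194.7 and 153.0 against 169.9 and 113.1. Ptpn1, a phosphatase that acts on JAK kinases, read 567.5 and 324.7 against 276.2 and 181.0 (0.94 ± 0.29). Of 22 tested genes of the receptor, JAK, STAT and SOCS list, 7 were higher without overlap (31.8%, against 12.6% of all probe sets) and 4 lower (18.2%, against 14.3%), and the list median was 0.04. The IL-6 receptor chain Il6ra was among the lower ones, at 188.7 and 217.3 against 238.0 and 227.2. Bcl3, an IkB-family protein and STAT3 target, read 876.9 and 700.1 against 539.0 and 452.3 (0.67 ± 0.20). Junb and Pim1, STAT3 targets with early peaks, overlapped between groups, with differences of -0.02 and -0.06.

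In the list of NF-kappaB, LPS and interleukin-1 genes, 10 of 24 (41.7%) were higher without overlap and 2 (8.33%) lower, against 12.6% and 14.3% of all probe sets. Lbp, the LPS-binding protein of plasma, read 930.8 and 918.9 against 568.6 and 472.0 (0.84 ± 0.21). Tnfrsf1a, the TNF receptor, read 476.4 and 389.3 against 307.0 and 206.9, but overlapped on a dimmer probe set, at 68.98 and 86.08 against 59.36 and 95.03. Il1r1, the interleukin-1 receptor, read 451.9 and 277.3 against 233.6 and 157.0. Tnf and Il1a overlapped. Icam1, an adhesion molecule listed with IFN-gamma targets, read 54.71 and 58.08 against 29.04 and 28.52, where both PBS values lie under the floor, so that it was at least 1.71-fold higher.

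Gas6, the ligand of the TAM receptor kinases, had the smallest p of all. It read 302.5 and 251.1 after IL-6 and 135.7 and 123.3 after PBS, 1.09 ± 0.14 log2 units or 2.13-fold, with an adjusted p of 0.17 by limma. Litaf, an endosomal membrane protein, read 551.2 and 335.8 against 200.2 and 123.1 (1.45 ± 0.31), and Snx10, a sorting nexin, 347.3 and 213.2 against 152.9 and 80.86. Abca1, the cholesterol exporter, read 616.3 and 588.7 against 377.3 and 345.5 (0.74 ± 0.15). Among these genes, the arrays of each group lay closest together for Gas6 and this Abca1 probe set. A dimmer Abca1 probe set read 452.9 and 325.4 against 296.2 and 263.4 (0.46 ± 0.47).

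Among the 4 control arrays, interferon-inducible genes read highest on IL-6 array 1. The type I and IFN-gamma lists held 49 tested genes, of which 28 (57.1%) were higher on both IL-6 arrays than on either PBS array and 2 (4.08%) lower, against 12.6% and 14.3% of all probe sets. Of these 28, 25 were further from PBS on IL-6 array 1, by a median of 0.77 log2 units between the IL-6 arrays. Of the 20 acute phase genes of the same kind 16 were, and the median over the 20 was 0.23. Of all 1214 probe sets 719 were, and the median was 0.03. The median of the 49 was 0.62 on IL-6 array 1 and 0.24 on IL-6 array 2. Some of these genes were also high on 1 PBS array of the Socs3-deleted livers. On PBS arrays 1 and 2 there, Ifit1 read 529.7 and 67.81, and Cxcl9 137.7 and 43.76. Isg15, Ifi47 and Igtp, at 539.2, 334.8 and 179.1 on the first of these, lay well below control IL-6 array 1. The cause was not tested.

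Promoters of 4 of these genes are shown: Isg15 and Ifi47 as the highest of the type I and IFN-gamma lists, and Ifit1 and Igtp, which were picked because their windows held matches. Capitals mark the core of the interferon-stimulated response element, searched as GAAA, any 2 bases and GAAA again, and TTCNNNGAA, on either strand (the core then reads TTTC, any 2 bases and TTTC). In Isg15 the 3 matches overlap, and the Ifi47 window held neither motif.
Isg15: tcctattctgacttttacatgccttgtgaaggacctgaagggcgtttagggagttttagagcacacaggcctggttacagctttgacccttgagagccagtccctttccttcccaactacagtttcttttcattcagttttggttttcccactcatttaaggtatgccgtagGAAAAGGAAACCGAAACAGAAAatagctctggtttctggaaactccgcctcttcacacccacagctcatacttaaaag
Ifit1: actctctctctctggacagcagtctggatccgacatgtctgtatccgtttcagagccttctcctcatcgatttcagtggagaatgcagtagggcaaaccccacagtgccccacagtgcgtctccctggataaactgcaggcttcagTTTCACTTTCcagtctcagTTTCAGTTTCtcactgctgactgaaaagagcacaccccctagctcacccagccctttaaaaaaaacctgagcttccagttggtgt
Ifi47: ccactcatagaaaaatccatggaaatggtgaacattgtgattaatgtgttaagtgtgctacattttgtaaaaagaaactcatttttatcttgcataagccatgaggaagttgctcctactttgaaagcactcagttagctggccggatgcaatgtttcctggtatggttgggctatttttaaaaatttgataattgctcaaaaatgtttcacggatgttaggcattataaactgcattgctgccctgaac
Igtp: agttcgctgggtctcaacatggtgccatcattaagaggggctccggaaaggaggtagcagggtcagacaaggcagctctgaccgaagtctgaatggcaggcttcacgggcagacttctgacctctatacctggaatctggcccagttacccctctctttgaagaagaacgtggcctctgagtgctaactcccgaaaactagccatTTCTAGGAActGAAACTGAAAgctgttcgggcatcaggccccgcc

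The Isg15 window (chr4:156200819-156201068, minus strand) held matches from bases -78, -72 and -66, and the Ifit1 window (chr19:34640639-34640888, plus strand) from bases -104 and -85. The Igtp window (chr11:58199306-58199555, plus strand) held TTCTAGGAA from base -45 and GAAACTGAAA from base -34. The Ifi47 window without a match is chr11:49076337-49076586 on the plus strand. Of the 28 genes 22 had a window, all but Gm9706, Ifi27, Iigp1, Ly6e, Mx2 and Usp18. The response element core lay in 10 of these 22 (45.5%) and in 2.98% of all windows, and TTCNNNGAA lay in 5 (22.7%). Many interferon-induced genes carry this element, and list members not higher after IL-6 were not counted apart. The share of the core therefore describes the lists and does not set the higher genes apart within them. Of the 16 acute phase genes with a window, that core lay in the window of Saa3 alone. In the 27 named genes higher by at least 2-fold, 23 had a window and 8 of them held the response element core. Of the same 23, TTCNNNGAA lay in 3 and CTGGGAA in 2. The share with CTGGGAA was thus close to the 9.1% of all windows. In these counts too a gene counted if any of its windows matched, whereas the share of all is per window.

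Isg15, a ubiquitin-like modifier, read 1635 and 298.7 after IL-6 and 182.2 and 160.5 after PBS, 2.03 ± 0.61 log2 units. IL-6 array 2 was higher than both PBS arrays but far nearer to them than to IL-6 array 1. Ifit1, which binds foreign RNA caps, read 425.9 and 115.9 against 58.90 and 52.43 (2.00 ± 0.83). Gm9706 read 283.6 and 38.83 against 25.90 and 29.48, where both PBS values lie under the floor, so that it was at least 3.18-fold higher in the mean. Ifit3, Ifih1, an RNA sensor, and Irf7, a transcription factor of the interferon system, followed at 1.08, 0.89 and 0.81 log2 units. In all 15 of 21 type I genes were higher without overlap and none lower. Ifit2 and Mx1 were under the floor on all 4 control arrays.

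Of the IFN-gamma-inducible GTPases, which attack the vacuoles of intracellular pathogens, Ifi47 read 948.1 and 285.4 after IL-6 against 230.7 and 90.00 after PBS (1.85 ± 0.53). Igtp read 551.4 and 184.3 against 124.0 and 94.44 (1.56 ± 0.42), and Irgm1 226.9 and 128.4 against 86.65 and 69.55 (1.14 ± 0.32). Iigp1 read 5695 and 3328 against 2289 and 1782 on one probe set (1.11 ± 0.24) and 2517 and 1382 against 873.7 and 618.9 on another (1.34 ± 0.25). For each of them the order of the arrays was IL-6 array 1, IL-6 array 2, PBS array 1 and PBS array 2. Gbp2, a guanylate-binding protein, read 144.1 and 61.26 against 43.84 and 50.28, and the chemokine Cxcl9 138.1 and 50.59 against 37.12 and 35.07.

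Other IFN-gamma targets had smaller differences. The peptide transporter Tap1 read 341.1 and 179.9 against 148.9 and 126.9, and the immunoproteasome subunit Psmb9 366.3 and 212.3 against 208.7 and 146.9. Irf1, a transcription factor of the interferon response, overlapped, at 265.5 and 217.9 against 246.3 and 203.4. Cxcl10 and Gbp2b were under the floor on all 4 arrays. The class I and II MHC genes had a median of 0.04, with 1 of 16 higher and 2 lower without overlap. When IL-6 array 2 was left out, 8 probe sets passed the test against PBS (limma), among them Isg15, Gm9706, Igtp, Iigp1, Saa3 and Tubb6. The IL-6 group is then 1 array, assumed to vary like the other groups, so these calls rest on the values of IL-6 array 1. Without any of the other 3 control arrays none passed.

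**Figure D3:**
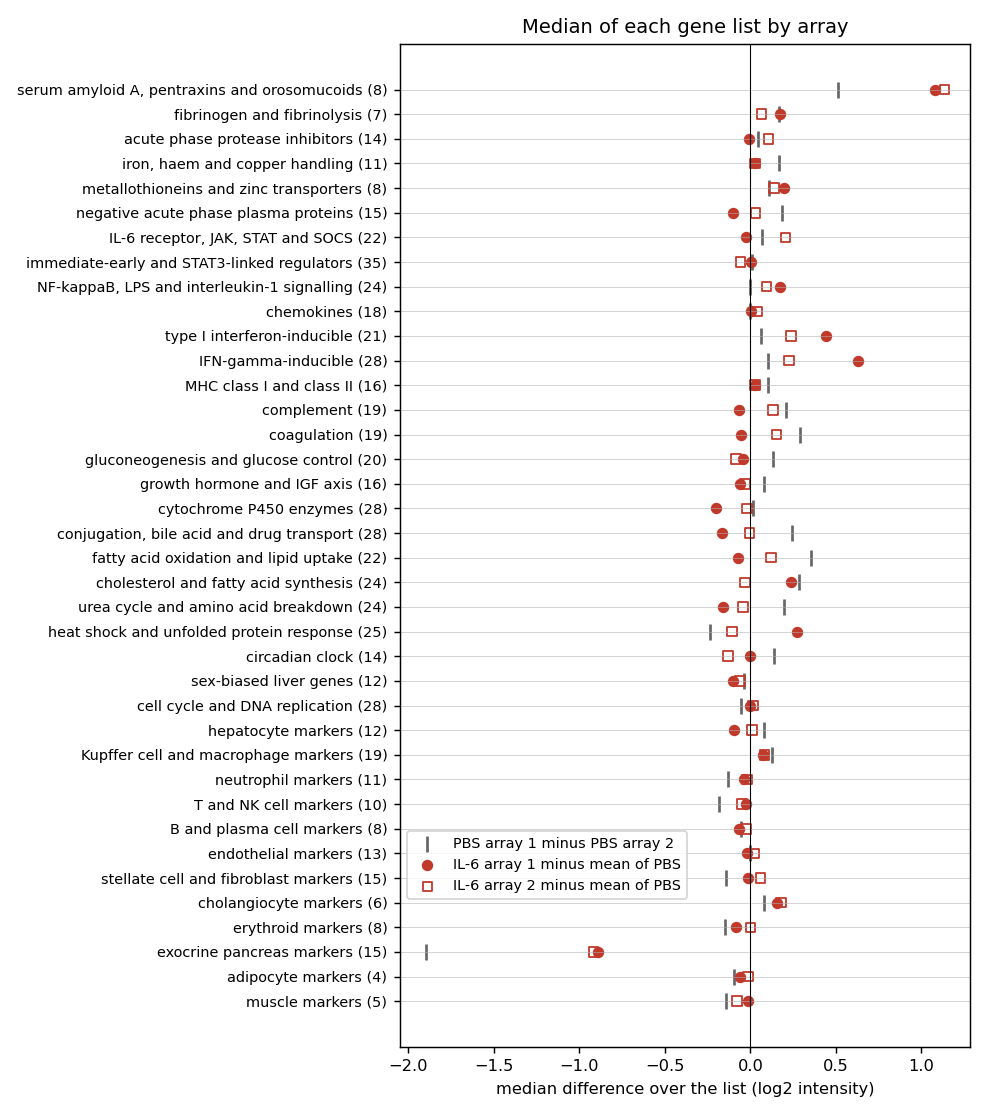
Median difference in log2 intensity over the tested genes of each of 38 lists (number of genes in brackets) for IL-6 array 1 (filled circles) and IL-6 array 2 (open squares), each against the mean of the PBS arrays, and for PBS array 1 against PBS array 2 (grey bars). The serum amyloid list stands at 1.08 and 1.14 on the IL-6 arrays, the interferon lists lie further right on IL-6 array 1, the heat shock list has opposite signs on the IL-6 arrays, and the exocrine pancreas list follows the difference of -1.90 between the PBS arrays.

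The 7 lower probe sets were those of Ddc, Egr1, Cela1, G6pc, Noct, Zg16 and Hsd3b2. Ddc, the aromatic amino acid decarboxylase, read 129.1 and 153.8 after IL-6 against 353.3 and 727.9 after PBS, -1.85 ± 0.41 log2 units, with an adjusted p of 0.641 by limma. Egr1, an immediate-early transcription factor, read 146.3 and 125.9 against 325.9 and 728.2 (-1.84 ± 0.38). G6pc, the last enzyme of glucose release, read 682.3 and 640.8 against 1711 and 1569 (-1.31 ± 0.46), with close values in each group. These 3 were at least 2-fold below both PBS arrays on both IL-6 arrays.

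Noct, the rhythmically expressed nocturnin, read 115.7 and 89.96 against 346.5 and 176.0 (-1.28 ± 0.48). A brighter Noct probe set overlapped, at 335.9 and 326.2 against 375.5 and 299.2 (-0.02 ± 0.21). Hsd3b2, a steroid dehydrogenase, read 76.15 and 143.1 against 178.6 and 268.2. Dusp6, a phosphatase of ERK kinases that is induced with Egr1 by growth factor signals, read 106.5 and 83.02 against 163.9 and 168.6 (-0.82 ± 0.30). Of the 35 immediate-early and STAT3-linked genes 9 (25.7%) were lower without overlap, against 14.3% of all probe sets, and 6 (17.1%) higher, near the 12.6% of all. Ier2 and Dusp1, of the same class as Egr1, had differences of -0.48 and -0.26, whereas Jun and Gadd45b were higher by 0.06 and 0.17. Amotl2, an angiomotin-like protein, read 73.74 and 67.45 against 100.1 and 102.6, -0.52 ± 0.11.

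Of the 7 metabolic lists 6 had medians slightly below 0. The exception was cholesterol and fatty acid synthesis, with 17 of 24 genes higher and a median of 0.13, which was 0.24 on IL-6 array 1 and -0.03 on IL-6 array 2. Of these 24, 1 was higher without overlap and 3 lower. Of 28 cytochrome P450 genes 11 (39.29%) were lower without overlap and 2 (7.14%) higher, against 14.3% and 12.6% of all probe sets, with a median of -0.10, and the median was -0.20 on IL-6 array 1 and -0.02 on IL-6 array 2. Cyp7b1 and Cyp8b1, enzymes of bile acid synthesis, read 947.9 and 924.2 against 1192 and 1267, and 1330 and 1421 against 2001 and 1465. Cyp7a1, the rate-limiting enzyme of bile acid synthesis, had no order by injection, at 59.90 and 245.8 against 310.1 and 118.5. Of 24 genes of the urea cycle and amino acid breakdown 6 (25%) were lower without overlap, against 14.3% of all probe sets, and none higher. Slc25a15, the ornithine carrier of mitochondria, read 1426 and 1540 against 1851 and 1837, and Tat, tyrosine aminotransferase, 3763 and 2605 against 4453 and 4028. In the gluconeogenesis list Pck1 overlapped where G6pc did not, at 981.8 and 963.7 against 1173 and 686.0.

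Some genes followed single arrays and not the injection. Cela1 and Zg16, which the exocrine pancreas makes, read 550.4 and 473.4 against 645.9 and 2695, and 85.12 and 90.10 against 92.11 and 374.5, so that PBS array 2 alone stood apart. The summed intensity of 17 pancreas markers was 2692 and 2700 on the IL-6 arrays, 2874 on PBS array 1 and 10810 on PBS array 2. The list median of -0.90 was -0.003 without PBS array 2. Haemoglobin alpha (Hba-a1) read 364.1 and 3649 after IL-6 against 315.8 and 6389 after PBS, high on the second array of each group, and the summed erythroid markers were 1426, 5018, 1500 and 8179. Cela1 and Zg16 were also high on the second PBS array of the Socs3-deleted livers, at 5931 and 847.5, against 454.1 and 89.64 on the first. That array is 1 of the 2 PBS arrays behind the responses without Socs3. The part of the pancreas and erythroid signals in the other differences was not tested.

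PBS array 2 also had the lower values of Mt1, Mt2, Saa2 and Serpina3n and the higher values of Egr1 and Ddc. Without it, the difference of Egr1 and Ddc from PBS was -1.26 and -1.33 log2 units, and that of Mt1, Saa2 and Serpina3n 2.66, 1.44 and 1.34. The summed Kupffer cell and macrophage markers lay between 3637 and 4207 on the 4 arrays, and the neutrophil markers between 1334 and 1457, with Mpo, Cxcr2, Mmp8 and Fpr2 under the floor on all 4. For T and NK cells Cd3d, Cd3g, Cd8a, Cd8b1, Gzma and Ncr1 were under the floor on all 4.

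Stress genes of the endoplasmic reticulum split the arrays in yet another way. Hspa5, its main chaperone, read 3265 and 1440 after IL-6 against 1475 and 2653 after PBS, and Creld2 1011 and 151.9 against 181.3 and 608.5, so that IL-6 array 1 and PBS array 2 were high. Of 25 tested genes in the heat shock and unfolded protein list 23 were higher on IL-6 array 1 than on IL-6 array 2. The list medians on these arrays were 0.27 and -0.11. Dnajb9, a co-chaperone of Hspa5, was the member that separated the groups most, at 517.7 and 337.1 against 165.1 and 239.1 (1.07 ± 0.46), but it overlapped on another probe set, at 621.4 and 310.6 against 163.8 and 310.8.

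A further set was higher on IL-6 array 2 than on IL-6 array 1. It was led by Phlda1, at 161.4 and 987.0 after IL-6 against 283.2 and 945.8 after PBS, Hhex, a liver homeobox factor, at 119.8 and 456.8 against 146.2 and 221.3, and the fatty acid hydroxylases Cyp4a14 and Cyp4a10. Cyp4a14 read 96.93 and 353.5 against 60.63 and 315.2, and Cyp4a10 196.3 and 676.4 against 163.5 and 573.8. As with haemoglobin, Phlda1 and both Cyp4a genes were high on the second array of each group. Socs2, a target of growth hormone through STAT5, read 122.2 and 290.6 against 235.4 and 145.7, an order that followed neither the injection nor the array number.

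The response without Socs3 was set beside that of the control livers, since the 2 responses share no array. The difference between them passed the test for 4 probe sets of 9641 (limma, 0.0415% called): Ifit2, Mx1, Cmpk2 and Gbp3, all interferon-inducible. An unadjusted p under 0.05 was found for 380 (3.94%). Ifit2 read 403.2 and 327.9 after IL-6 and 51.32 and 28.31 after PBS without Socs3, and between 29.27 and 32.05 on the control arrays. The response was 3.14 log2 units greater than in control livers (adjusted p 0.00347, limma). For Mx1, a GTPase against influenza viruses, the arrays without Socs3 read 204.8 and 264.7 against 22.19 and 15.95, and the difference was 2.82 (adjusted p 0.00213). Both genes were under the floor on all control arrays, which then show no spread, so these p-values may be too small. They entered the test only through arrays other than the control ones. Among those were the Socs3-deleted IL-6 arrays, whose height the difference measures. The floor fixed the control response of both genes at no change, so their calls are no independent support. The size of the difference is set by the floor as well: with a floor at the 50th percentile it was 2.12 for Ifit2 and 1.47 for Mx1, and with no floor 3.19 and 3.63.

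Cmpk2, a mitochondrial nucleotide kinase, read 51.30 and 44.32 after IL-6 and 43.22 and 45.52 after PBS in control livers, and 343.4 and 303.4 against 58.49 and 43.71 without Socs3. A second Cmpk2 probe set lay under the floor on all arrays of both genotypes and was not tested. Gbp3, a guanylate-binding protein, read 143.8 and 103.3 against 79.67 and 81.90, and 737.8 and 757.0 against 125.2 and 90.37. The responses differed by 2.57 and 2.22 log2 units (adjusted p 0.00585 and 0.0292, limma). Without either control PBS array 1 probe set passed in place of 4, without control IL-6 array 1 or 2 there were 12 or 2, without the first IL-6 or PBS array of the livers lacking Socs3 15 or 7, and without PBS array 2 of both genotypes none; a group left with 1 array was assumed to vary like the others. Ifit2, Cmpk2 and Gbp3 also lost their call when only the arrays compared were fitted or no filter was set, whereas Mx1 kept it in both. Other interferon genes that were high on IL-6 array 1 read higher still without Socs3 but their difference did not pass: Isg15 read 3875 and 4324 after IL-6 and 539.2 and 331.8 after PBS there, and Gbp2 1454 and 2381 against 206.1 and 53.12. The median of the 49 interferon genes was 0.40 in control livers and 1.54 without Socs3. There, both IL-6 arrays lay above both PBS arrays for 38 of the 49 (77.6%) and for 15 of the 48 acute phase genes (31.2%), as against 19.0% of all probe sets.

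The acute phase genes did not share this, with a median response of 0.10 in control livers and 0.04 without Socs3. The response was the greater without Socs3 for 13 of the 48 (27.1%), as against 52.5% of all probe sets, and none of the 48 passed the test of the difference (limma). Mt1 read 9513 and 10080 after IL-6 and 9266 and 9157 after PBS without Socs3, so that the PBS arrays there were as high as the IL-6 arrays of control livers. Saa2 read 10050 and 10910 against 8620 and 10650, Lcn2 3157 and 2288 against 1006 and 1907, and Apcs 1777 and 2115 against 1471 and 3876. For each of these 4 genes both PBS arrays without Socs3 lay above both control PBS arrays. Of the 48 acute phase genes 25 (52.1%) did so, as against 15.6% of all probe sets, and of the 49 interferon genes 24 (49.0%). The response differed by -3.96 log2 units for Mt1 and -3.41 for Lcn2, with adjusted p of 1.0 and 0.740 (limma). Saa3 responded by 2.75 without Socs3 and 3.11 in control livers, a difference of -0.36. A2m, 1 of the 13, responded by 3.97 without Socs3, where it read 1452 and 1421 against 86.79 and 96.77.

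**Figure D4:**
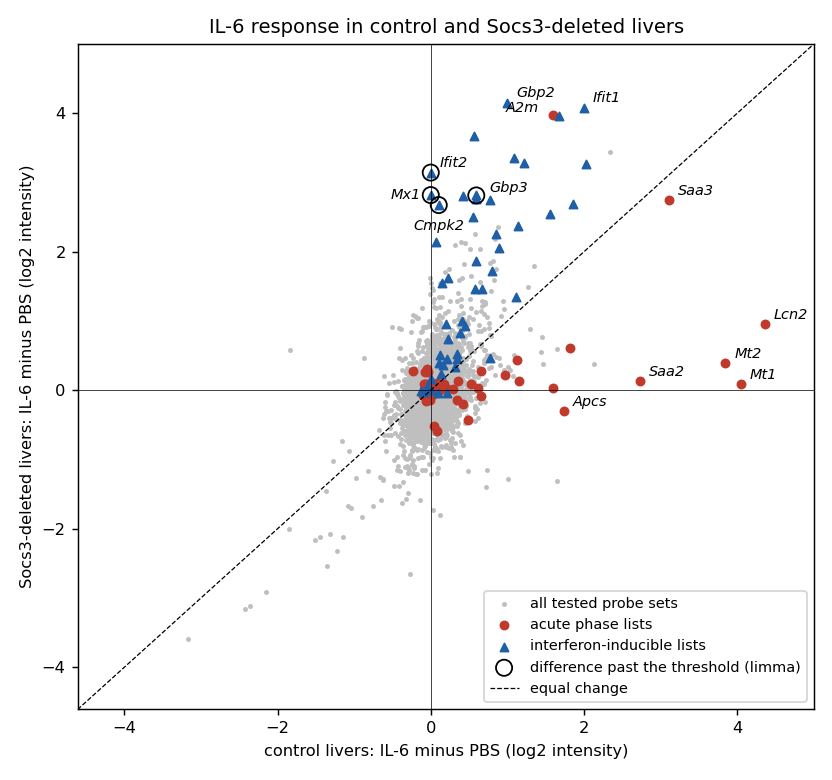
Response to IL-6 (log2 intensity, IL-6 minus PBS) in control livers (x axis) and livers with deleted Socs3 (y axis) for 9641 probe sets (grey), the acute phase lists (red circles) and the interferon lists (blue triangles); open black circles mark the 4 probe sets whose responses differed (limma) and the dashed line equal change. Most interferon genes lie above the line, Mt1, Mt2, Saa2, Lcn2 and Apcs below it near 0 on the y axis except Lcn2 at 0.96, and Saa3 close to it.

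Of the genes lowest after IL-6 in control livers, Ddc and G6pc were also lower without Socs3. Ddc read 53.79 and 79.76 after IL-6 against 212.5 and 324.6 after PBS there, -2.0 log2 units, and G6pc 532.9 and 187.3 against 1164 and 1521, -2.07. Egr1 did not, at 183.8 and 318.2 against 177.9 and 147.5, a response of 0.58 that differed from the control by 2.42 with an adjusted p of 0.453 (limma). Its PBS values without Socs3 lay below both control PBS values.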

How the data were processed

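The deposited table holds intensities of total liver RNA on 12 Affymetrix arrays, 2 in each of 6 groups. The software and scaling by which the authors made these intensity values are not given in the sources used here. Of 12488 probe sets 66 controls were left out. Intensities were raised to a floor of 33.01, the 25th percentile of all values, and converted to log2, which understates changes near the floor. Probe sets above the floor on at least 2 arrays (9641) were fitted with 6 group means in limma 3.58.1 (R 4.3.3; lmFit, contrasts.fit, eBayes; 6 residual and 3.38 prior degrees of freedom). The p-values were two-sided and adjusted by Benjamini-Hochberg across the 9641, with 0.05 as threshold. The fit was checked on simulated data. The number of arrays limits the precision.

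Of 12422 probe sets 10833 had 1 symbol in the platform annotation, of which 10817 matched a current gene by Entrez identifier; 396 had several and 1193 none, and no gene was named from these. A gene in a list was read from its brightest probe set by mean over the arrays. The members, the 38 lists and the comparisons were chosen with earlier results of these data known. Genes named were Socs3, the 15 highest and 15 lowest differences without overlap, the 10 smallest p-values, up to 4 genes per list, the 10 largest excesses of either IL-6 array and those called in the difference; further list members were chosen after their values were seen. Motifs were searched in the 250 bases before 32851 RefSeq gene starts (GRCm38.p6). The alternatives tried were quantile normalization, floors at the 10th and 50th percentile, no filter, a filter on 4 arrays, a fit of only the arrays compared, array weights, an intensity trend, a replicate block and leaving out arrays, and, added after seeing the data, no floor and leaving out the second PBS array of both genotypes.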

Additional observations from a re-analysis of the deposited data

Results flagged for a closer look

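The response to IL-6 differed between livers with deleted Socs3 and control livers for 4 interferon-inducible genes by the test of the difference itself (limma, adjusted p under 0.05). Ifit2 responded by 3.14 log2 units more without Socs3, Mx1 by 2.82, Cmpk2 by 2.57 and Gbp3 by 2.22. All 4 had both IL-6 arrays without Socs3 above the 6 other arrays of these 2 genotypes. In control livers Ifit2 and Mx1 stayed under the floor on all 4 arrays, and Mx1 also on both PBS arrays without Socs3, so the sizes given for these genes depend on the floor: over 19 alternatives they ranged from 2.12 to 3.46 for Ifit2 and from 1.47 to 3.63 for Mx1. Ifit2 and Mx1 entered the test only through arrays other than the control ones, and the floor fixed their control response at no change. Among those arrays were the Socs3-deleted IL-6 arrays whose height the difference measures, so their calls are no independent support. Their p-values may therefore be too small. When only the arrays compared were fitted, Mx1 alone of the 4 kept its call. In control livers Cmpk2 differed by 0.10 and Gbp3 by 0.59. Groups of 2 arrays are too small for a test of single arrays that stand apart.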

How the results depend on the processing

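The count of 0 probe sets past the test of IL-6 against PBS was redone without each control array, but not without a Socs3-deleted array. Among these fits it changed only without IL-6 array 2, as given above. With the replicate block it was 0, with 281 probe sets at an unadjusted p under 0.05 as against 248, and 6 instead of 4 for the difference of the responses. Across the tested probe sets the replicate differences of the IL-6 and PBS groups correlated with r = 0.138. Between other groups r lay between -0.254 and 0.665, the highest for the Ifng-null groups. Each group gives a single difference, so this cannot decide whether equal numbers are pairs. The numbers were not taken as pairs. The count of 4 in the difference became 8 with a 50th percentile floor, 1 with only the arrays compared and 0 without the second PBS array of both genotypes, and ranged from 1 to 15 over fits without 1 array. IL-6 array 2 had 3 probe sets at least 2-fold below both PBS arrays, and 5 after quantile normalization; the cause was not tested. Leaving out 1 array reversed 4 values that had not passed: the change of Cmpk2 ranged from -0.001 (without IL-6 array 1) to 0.21, the difference of response for Saa3 from -1.69 to 0.96 (without IL-6 array 1; 0.05 without the first Socs3-deleted PBS array), and that for Ifi47 from -0.036 (without IL-6 array 2) to 1.70. Among single genes and list medians 2435 comparisons with an alternative kept direction and side of the threshold, 91 medians moved, 21 calls were lost and 7 gained.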

Other observations

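Genes with an order that the injection does not give were also measured. Cyp26a1, which breaks down retinoic acid, read 42.63 and 64.48 after IL-6 and 312.5 and 44.16 after PBS, high on PBS array 1 alone. Cebpb, a transcription factor of acute phase genes, read 1058 and 504.8 after IL-6 and 1326 and 463.8 after PBS, high on the first array of each group. Igfbp1, an insulin-repressed binding protein of IGF1, had the same order, at 120.0 and 65.34 against 223.0 and 66.61. Herpud1, which takes part in the degradation of misfolded proteins, read 2313 and 979.7 against 1356 and 1137. Zbtb16, a zinc finger factor induced by glucocorticoids, read 217.4 and 28.29 against 47.38 and 144.3, but 96.61 and 92.62 against 86.79 and 97.7 on another probe set.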
